A study of Mus musculus with 15 samples.

Results

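The Bcl2 family decides at the mitochondrial outer membrane whether a cell starts apoptosis, and 10 of its genes were followed here in mouse heart muscle cells after exposure to iron ions. The genes were taken by name and were Bcl2l11, Bcl2, Bcl2l1, Mcl1, Bax, Bak1, Bad, Bbc3, Bnip3 and Bnip3l. Of these 10, 9 had a named probe set on the array, Bax was not analysed here, and 8 were among the 9969 genes tested of 19937 named genes. Bbc3 lay under the filter on mean signal and is given by its values. Each gene was represented by the probe set with a single gene symbol that had the highest mean over the 15 arrays.

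The cells were cardiomyocytes isolated from the left ventricle with collagenase, and the C57Bl/6NT mice were males aged between 8 and 9 months. The exposed mice had received 0.15 Gy of 1 GeV per nucleon iron (56Fe) ions to the whole body. Their cells were isolated after 1 or 3 days, with 3 arrays each, or after 7, 14 or 28 days, with 2 arrays each. The sham-irradiated mice gave 2 arrays on day 1 and 1 array on day 3. These 3 sham arrays were pooled as the control for every day, so that for days 7, 14 and 28 exposure and time of collection cannot be told apart. The labels do not say whether arrays of a group come from separate animals, so the p-values cover only array-to-array spread, part of which may be technical. All values are log2 signals as the authors normalized them, and a difference of 1 is a 2-fold change. Differences were tested with limma over all 9969 genes with Benjamini-Hochberg adjustment, and a gene passed at an adjusted p under 0.05.

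The family holds guardians, killers and messengers. The guardians Bcl2, Bcl2l1 (the gene of Bcl-xL) and Mcl1 bind and hold the pore-forming proteins Bax and Bak1, which otherwise open the outer membrane and release cytochrome c. The messengers carry only a BH3 helix: Bcl2l11 (Bim) and Bbc3 (Puma) engage all guardians and can activate Bax and Bak1, while Bad engages Bcl2 and Bcl-xL and is silenced by phosphorylation. Bnip3 and Bnip3l (Nix) are outer membrane proteins with a BH3-like stretch that also act as receptors for the removal of mitochondria by autophagy. Heart muscle is packed with mitochondria and hardly renews its cells, and in mice the loss of Mcl1 from cardiomyocytes leads to heart failure.

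Bcl2l11 and Bcl2 are the members that passed a test, and the sequence around their starts is shown for that reason. The windows run from 250 bases before to 50 bases after a RefSeq start in GRCm38.p6 on the strand of the gene, 5′ to 3′, and capitals mark the motifs found in them. Bcl2l11 has an upstream start (chr2:128125788-128126087, plus strand) and a downstream start (chr2:128127325-128127624, plus strand) in that table, and Bcl2 has a single start (chr1:106714241-106714540, minus strand).
Bcl2l11 upstream start: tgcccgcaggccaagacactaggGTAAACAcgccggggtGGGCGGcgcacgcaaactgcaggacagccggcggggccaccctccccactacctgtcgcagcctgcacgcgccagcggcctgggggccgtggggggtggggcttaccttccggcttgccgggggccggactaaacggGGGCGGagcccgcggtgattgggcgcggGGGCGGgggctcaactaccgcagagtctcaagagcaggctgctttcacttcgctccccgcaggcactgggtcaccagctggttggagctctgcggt
Bcl2l11 downstream start: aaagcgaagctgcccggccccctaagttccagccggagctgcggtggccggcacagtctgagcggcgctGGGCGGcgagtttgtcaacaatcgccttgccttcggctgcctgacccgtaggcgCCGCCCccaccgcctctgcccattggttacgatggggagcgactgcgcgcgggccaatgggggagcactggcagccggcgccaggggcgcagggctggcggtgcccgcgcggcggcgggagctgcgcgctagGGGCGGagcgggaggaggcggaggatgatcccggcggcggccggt
Bcl2 start: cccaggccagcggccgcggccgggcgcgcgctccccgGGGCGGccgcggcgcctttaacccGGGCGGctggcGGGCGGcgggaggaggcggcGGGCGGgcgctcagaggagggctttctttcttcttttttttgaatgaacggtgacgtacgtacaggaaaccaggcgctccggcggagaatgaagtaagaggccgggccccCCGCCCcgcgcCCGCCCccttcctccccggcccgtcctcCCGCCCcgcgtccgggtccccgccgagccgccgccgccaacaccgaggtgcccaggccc

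The windows are rich in G and C, at 71.0% and 74.0% for the upstream and downstream starts of Bcl2l11 and 76.0% for Bcl2, against a median of 52.7% over 32851 promoters of the same length. The GC box GGGCGG, searched on both strands, occurs 3 times in each Bcl2l11 window and 7 times in that of Bcl2, and 35.7% of all promoters hold at least 1. The core GTAAACA, which Foxo factors recognize, occurs once, at position -227 of the upstream Bcl2l11 window, and 3.65% of all promoters hold it. The hypoxia response core ACGTG (in 19.6% of all promoters), the AP-1 site TGANTCA (7.81%) and the E2F site TTTNGCGC (1.38%) were not found in these 3 windows. No match overlapped a match of another motif. A match describes the letters and does not show a binding site.

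All 15 ventricular cardiomyocyte markers were on the array and passed the filter. Their mean lay at 11.4 to 11.6 in every array, where the signals of all probe sets ran from 0.234 to 13.01. Of the 15, Ryr2 alone passed on day 7, lower by 0.33, where 4.6% of all genes passed. In late (days 7, 14 and 28) against early (days 1 and 3) iron 4 passed lower and 0 higher, where 22.0% of all genes passed. These were Ryr2, Mybpc3, Ttn and Tnnt2. Markers of other cells were also measured, and their signals were uneven between groups. The mean of 15 fibroblast markers was 6.05 to 6.23 in the 3 arrays of iron day 3, against 7.28 to 7.51 in the sham arrays. In bulk samples fewer cells of a type and less RNA per cell cannot be told apart. The sham day 3 array and both iron day 28 arrays had the highest means of lymphocyte markers (13 on the array, 4 tested). These means were 6.97 and 7.09 on iron day 28 and 6.24 in sham day 3, against 4.28 and 4.53 in the sham day 1 arrays. On iron day 7 (5.95 and 5.11) and day 14 (5.25 and 4.88) they lay between the sham day 1 and sham day 3 values. Between sham day 3 and sham day 1 no tested member passed, and the greatest difference was 0.28 for Bcl2 (SE 0.377, limma adjusted p = 0.851), whereas 38 of 9969 genes passed. Over all genes, the share of higher among passing genes shifted when each array was centred on its median: it was 34.7% as deposited and 22.9% centred on day 3, 42.0% and 15.0% on day 7, 70.9% and 38.0% on day 28, 59.3% and 35.8% over all iron days, and 46.8% and 27.6% in late against early iron. The centring moved the median of all genes to -0.124 on day 7. Bcl2l11 kept its sign against sham under this centring on every day.

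Bcl2l11 was higher in the iron arrays than in the sham arrays, and among the 8 tested members only Bcl2l11 passed against sham on any day. Its signal was 6.16, 6.22 and 6.45 on iron day 1, 6.84, 6.65 and 6.46 on day 3, 6.60 and 6.44 on day 7, 6.55 and 6.24 on day 14, and 6.67 and 6.56 on day 28, against 5.79 and 5.90 in the sham day 1 arrays and 6.07 in the sham day 3 array. All 12 iron arrays lay above all 3 sham arrays, as they did for 0.532% of all genes tested. Day by day, such a gap to sham was held by 7.59% of all genes on day 1, 19.8% on day 3, 15.3% on day 7, 13.7% on day 14 and 25.7% on day 28. The order of the group means from the top was day 3 (6.65 ± 0.19, SD, n = 3), day 28 (6.62 ± 0.08, n = 2), day 7 (6.52 ± 0.11, n = 2), day 14 (6.398 ± 0.217, n = 2), day 1 (6.28 ± 0.16, n = 3) and sham (5.92 ± 0.14, n = 3). Neighbouring iron days in this order overlapped in range, and the lowest of them, day 1, did not overlap sham.

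**Figure D1:**
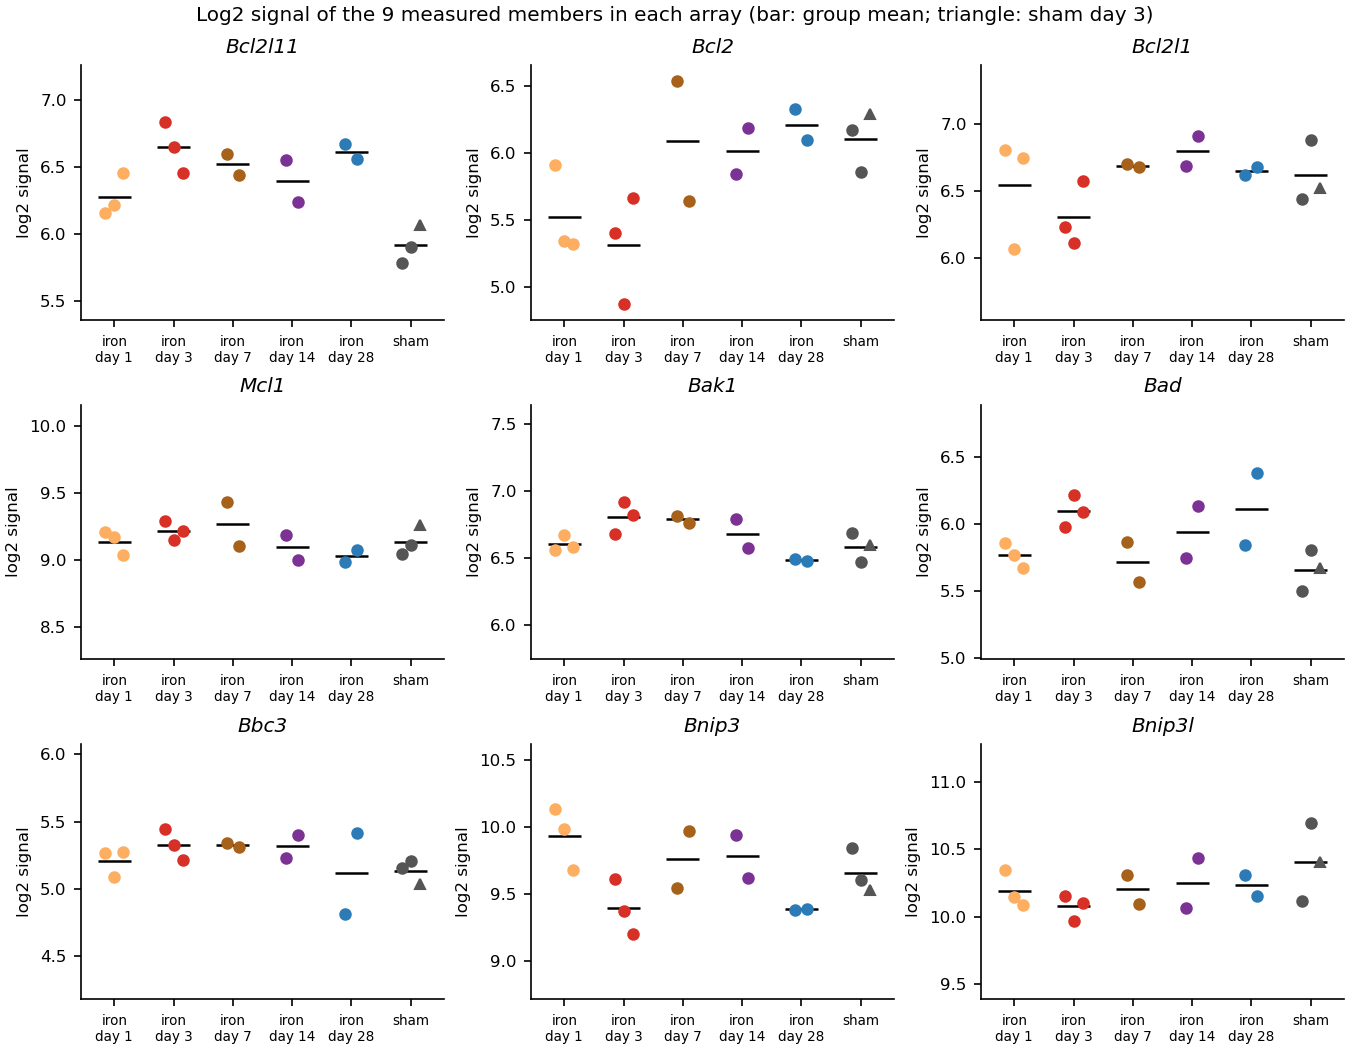
Log2 signal (vertical axes, each spanning the same range) of the 9 measured members by group, with 1 point an array (a triangle for sham day 3) and a bar at the group mean. In Bcl2l11 all 12 iron arrays sit above the 3 sham arrays, whereas in Mcl1 the groups share 1 band between 8.98 and 9.43.

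On day 3 Bcl2l11 stood 0.73 above sham, or 1.66-fold (SE 0.124, limma adjusted p = 0.00745). It was 1 of 8 tested members to pass on that day, when 8.03% of all genes passed and 2.79% passed higher. On day 7 it stood 0.60 above sham, or 1.52-fold (SE 0.139, adjusted p = 0.0301), again as 1 of 8 members against 4.6% of all genes (1.94% higher). On day 28 the difference was 0.70, or 1.62-fold (SE 0.139, adjusted p = 0.0214; 2.0% of all genes passed, 1.41% higher), and over all iron days together 0.57, or 1.49-fold (SE 0.0987, adjusted p = 0.0112; 1.13% of all genes passed, 0.672% higher). These comparisons share the 3 sham arrays. On day 1 it stood at 0.36 (SE 0.124, adjusted p = 0.319; 0.0602% of all genes passed) and on day 14 at 0.48 (SE 0.139, adjusted p = 0.134; 0.833% passed), and neither passed. Among the iron days no difference passed, with an adjusted p of 0.152 in the F test (19.2% of all genes passed) and a difference of late (days 7, 14 and 28) minus early (days 1 and 3) iron of 0.05 (SE 0.0880, adjusted p = 0.724; 22.0% passed).

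The call on day 3 held without any 1 of the 15 arrays, and the difference then ranged from 0.64 to 0.83 (adjusted p = 0.0029 to 0.0421). The other calls were lost when certain single arrays were left out, while the difference stayed above sham. On day 7 leaving out replicate 1 or 2 of iron day 7 gave 0.53 or 0.68, and leaving out replicate 1 or 2 of sham day 1 gave 0.54 or 0.60 (adjusted p = 0.175, 0.0553, 0.0846 and 0.0762). On day 28 leaving out replicate 1 or 2 of iron day 28 gave 0.64 or 0.75, and leaving out the same of sham day 1 gave 0.63 or 0.69 (adjusted p = 0.223, 0.149, 0.102 and 0.0759). After median centring of the arrays the day 28 value was 0.59 (adjusted p = 0.0569), and with only the arrays compared in the fit the day 7 value of 0.60 did not pass (adjusted p = 0.123). Over all iron days leaving out replicate 1 or 2 of sham day 1 gave 0.51 or 0.57 (adjusted p = 0.122 and 0.0629). Against the sham day 3 array alone the 4 differences were 0.58, 0.46, 0.55 and 0.43 for day 3, day 7, day 28 and all iron days, and no call held (adjusted p = 0.0866, 0.237, 0.382 and 0.267).

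**Figure D2:**
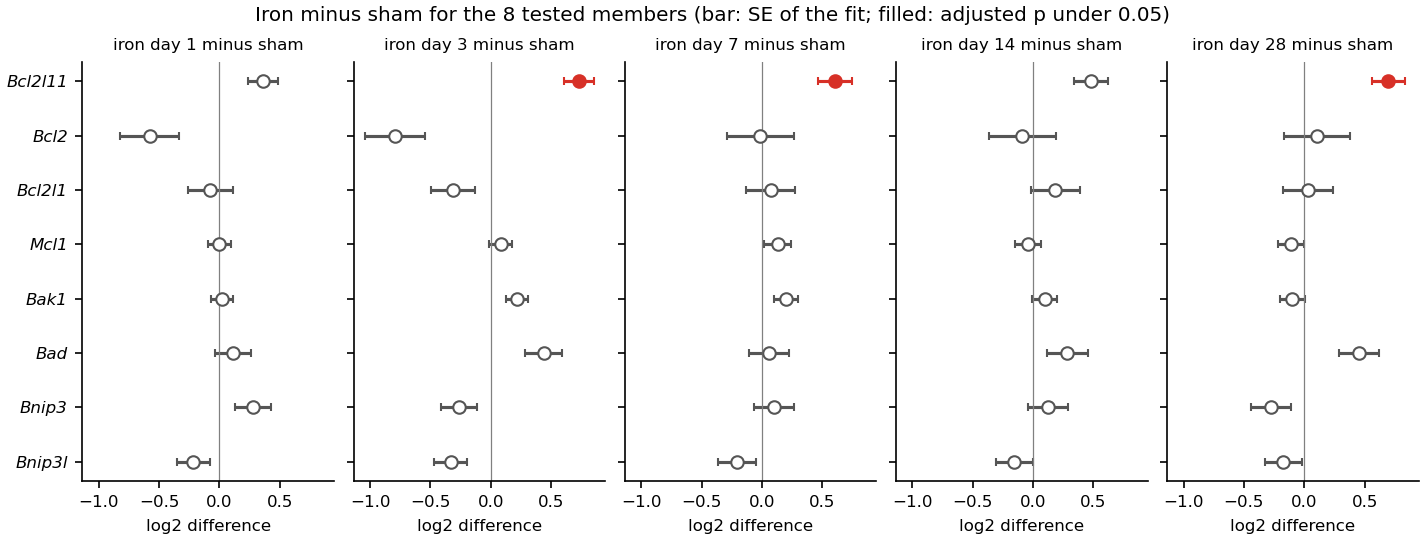
Log2 difference of each iron day from sham (horizontal axes) for the 8 tested members, with bars for the SE of the fit and filled points for an adjusted p under 0.05. Bcl2l11 lies between 0.36 and 0.73 on all 5 days and holds the 3 filled points, and Bcl2 has its lowest values on days 1 and 3.

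Among the guardians, Bcl2 was low on the early iron days. Its signal was 5.91, 5.34 and 5.32 on iron day 1, 5.40, 4.87 and 5.66 on day 3, 6.54 and 5.64 on day 7, 5.84 and 6.19 on day 14, and 6.32 and 6.10 on day 28, against 6.17, 5.86 and 6.29 in the sham arrays. All 3 arrays of day 3 were below every sham array, as for 15.8% of all genes, and so were 2 of 3 of day 1. Late minus early iron was 0.69, or 1.61-fold higher late (SE 0.175, limma adjusted p = 0.0153), and Bcl2 was 1 of 8 members to pass where 22.0% of all genes did (10.3% higher). Late and early arrays overlapped, since replicate 2 of day 7 (5.64) lay under replicate 1 of day 1 (5.91) and replicate 3 of day 3 (5.66). The difference passed without any 1 array, at 0.54 to 0.84.

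Against sham, Bcl2 stood at -0.79 on day 3 (SE 0.248, adjusted p = 0.0657) and at -0.58 on day 1 (SE 0.248, adjusted p = 0.405), and neither passed. The day 3 value passed without replicate 1 of iron day 1 (adjusted p = 0.0448) and without replicate 1 or 2 of iron day 7 (adjusted p = 0.0341 and 0.0340), which leave the difference as it is and lower the estimated spread. It also passed with only the arrays compared in the fit (adjusted p = 0.0385), with array weights (-0.76, adjusted p = 0.0278) and after median centring of the arrays (-0.82, adjusted p = 0.0445). In the other 19 of 25 alternatives it did not pass in limma. It was -0.57 without replicate 2 of iron day 3 (adjusted p = 0.226) and -0.70 against the sham day 1 arrays alone (adjusted p = 0.183). The latter fit is counted again among the 25 as the one that leaves out the sham day 3 array. On days 7, 14 and 28 Bcl2 differed from sham by -0.01, -0.09 and 0.11 (SE 0.277 each). The day 7 value averages an array above and an array below every sham array, and it was -0.46 without replicate 1 and 0.43 without replicate 2 of iron day 7. Of all members Bcl2 varied the most over the 15 arrays, with an SD of 0.458, more than 93.8% of the genes tested.

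Bcl2 moved alongside markers of other cell types. The fibroblast marker means were 7.21, 6.46 and 6.15 on iron day 1 and 6.18, 6.05 and 6.23 on day 3, followed by 7.32 and 6.89 on day 7, 6.54 and 6.65 on day 14 and 7.24 and 7.15 on day 28, against 7.40, 7.28 and 7.51 in sham. Replicate 1 of day 1 and replicate 1 of day 7, the highest arrays of their groups by Bcl2, were also the highest of their groups by these markers. On day 3, 10 of 13 tested fibroblast markers, 10 of 12 macrophage markers and 9 of 15 endothelial markers passed lower, where 8.03% of all genes passed. An unadjusted p under 0.05 in limma was held by 13, 11 and 13 of them (27.2% of all genes). The median differences of the 3 lists were -1.34, -1.32 and -1.12. In late minus early iron 11, 10 and 4 of the markers passed higher, where 22.0% of all genes passed (10.3% higher). All 4 tested lymphocyte markers passed higher in this comparison too, with a median difference of 1.11. Of 7 tested pericyte markers 1 passed, lower, and of 2 tested erythroid markers 0 passed. Every probe set had a log2 signal above 0 (lowest 0.234), so such a signal does not show by itself that a cell type was present. The part of these cells in the Bcl2 values was not tested.

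Bcl2l11 is set beside the same markers for all arrays near the sham level. By the mean of the fibroblast markers alone, 4 iron arrays came closest to sham (7.28 to 7.51). They were replicate 1 of day 7 (7.32), both arrays of day 28 (7.24 and 7.15) and replicate 1 of day 1 (7.21). Bcl2l11 in these was 6.60, 6.67, 6.56 and 6.16, against 5.79, 5.90 and 6.07 in sham. The last of them, replicate 1 of day 1, was the lowest iron array by Bcl2l11. Its endothelial (8.07), lymphocyte (4.33) and erythroid (6.17) marker means lay inside the sham ranges (7.70 to 8.10, 4.28 to 6.24 and 5.56 to 6.43). Its macrophage marker mean (6.79) lay below the sham range (6.86 to 7.15) and its pericyte marker mean (7.35) above it (6.67 to 7.31). Replicate 1 of day 7 had a macrophage marker mean of 7.94, above every sham array. On day 28 the listed fibroblast markers moved both ways. Of 13 tested, Thy1 passed higher (2.20) and Postn lower (-1.81), where 2.0% of all genes passed, and the median was -0.32. Among 4 tested lymphocyte markers, Cd4 (2.62) and Cd3e (1.58) also passed higher on day 28, and 0 passed lower. Whether the Thy1 signal came from fibroblasts or lymphocytes was not tested.

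In the other direction, the iron day 3 arrays, with Bcl2l11 at 6.46 to 6.84, had endothelial marker means of 6.74 to 7.11, below every sham array, and erythroid means (6 markers on the array, 2 tested) of 4.70 to 5.37, also below. Their pericyte marker means (10 on the array, 7 tested) were 6.47 to 6.72, against 6.67 to 7.31 in sham. Of the 7 tested pericyte markers 1 passed, lower, where 8.03% of all genes passed. In limma 5 of the 7 had an unadjusted p under 0.05 (27.2% of all genes), and the median difference was -0.95. The erythroid means of day 28 (5.39 and 5.44) were below sham as well. Bcl2l11 thus differed from sham in arrays whose markers of other cells differed too, and the part of these cells in the Bcl2l11 values was not tested.

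**Figure D3:**
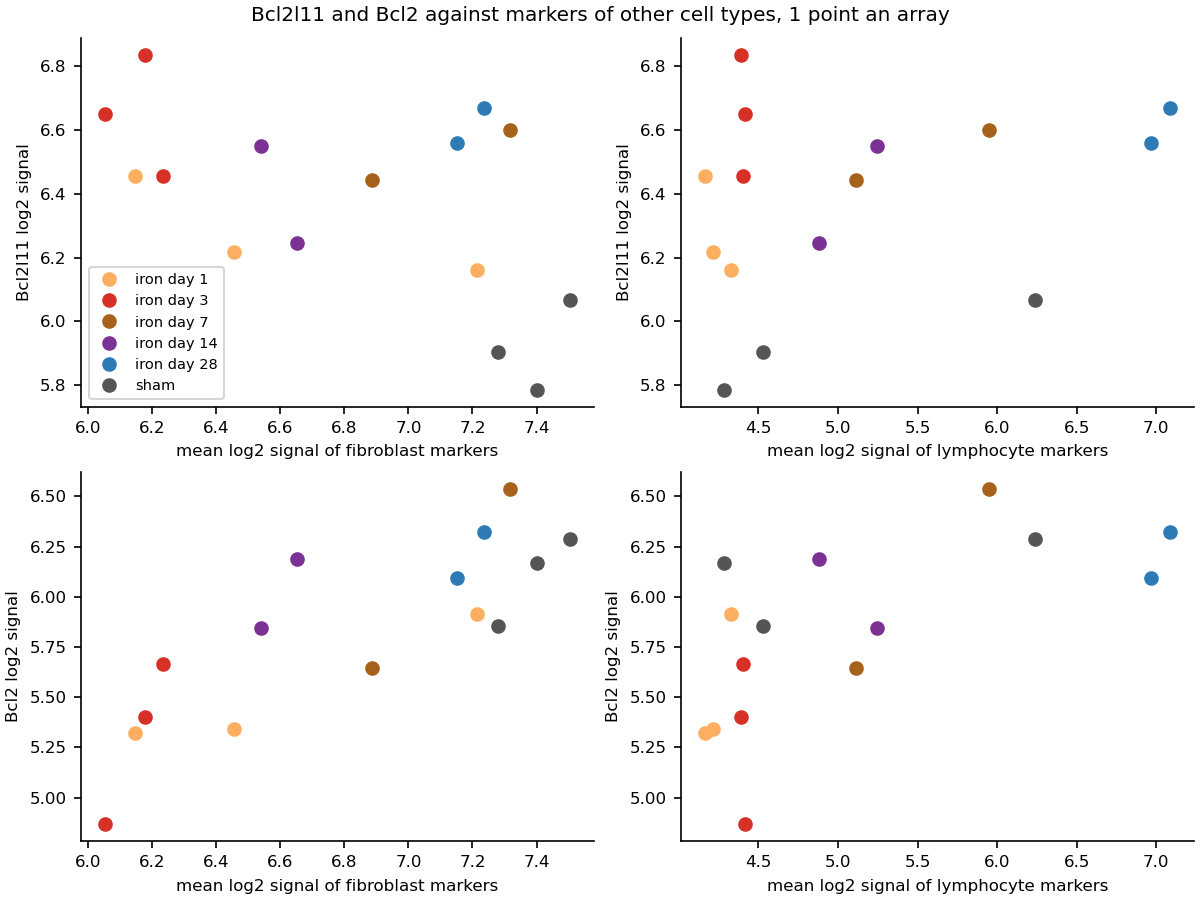
Log2 signal of Bcl2l11 (top) and Bcl2 (bottom) against the mean log2 signal of fibroblast (left) and lymphocyte markers (right), with 1 point an array. The iron arrays with fibroblast marker means of 7.15 to 7.32 have Bcl2l11 between 6.16 and 6.67, and the array with the lowest Bcl2 (4.87) has the lowest fibroblast marker mean (6.05).

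Bcl2l1 and Mcl1, the other guardians, did not pass in any comparison. Bcl2l1 was 6.81, 6.07 and 6.75 on iron day 1, 6.24, 6.11 and 6.57 on day 3, 6.70 and 6.68 on day 7, 6.69 and 6.91 on day 14, and 6.62 and 6.68 on day 28, against 6.44, 6.88 and 6.53 in sham. Its lowest arrays were replicate 2 of day 1 and replicates 1 and 2 of day 3, all under the sham range. The day 3 difference was -0.31 (SE 0.183, adjusted p = 0.292), and late minus early iron stood at 0.29 (SE 0.129, adjusted p = 0.125).

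Mcl1 was the steadiest member, with an SD of 0.121 over the 15 arrays, under that of most genes tested (median 0.173). It read 9.20, 9.17 and 9.03 on iron day 1, 9.29, 9.15 and 9.21 on day 3, 9.43 and 9.10 on day 7, 9.19 and 9.00 on day 14, and 8.98 and 9.07 on day 28, against 9.04, 9.11 and 9.26 in sham. Its differences from sham ran from -0.11 on day 28 (SE 0.109) to 0.13 on day 7 (SE 0.109), and all groups overlapped sham.

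Of the pore-forming pair only Bak1 was measured, and it did not pass. Bak1 was 6.56, 6.67 and 6.58 on iron day 1, 6.67, 6.92 and 6.82 on day 3, 6.81 and 6.76 on day 7, 6.79 and 6.57 on day 14, and 6.49 and 6.48 on day 28, against 6.69, 6.47 and 6.60 in sham. Both arrays of day 7 were above every sham array, as for 15.3% of all genes, and so were 2 of 3 of day 3. The differences were 0.22 on day 3 (SE 0.0907, adjusted p = 0.140), 0.20 on day 7 (SE 0.101, adjusted p = 0.245) and -0.10 on day 28 (SE 0.101, adjusted p = 0.622), and the F test among iron days gave an adjusted p of 0.118.

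Bad, which frees the pore formers by occupying Bcl2 and Bcl-xL, had higher values on days 3 and 28 without passing. It was 5.86, 5.77 and 5.67 on iron day 1, 5.98, 6.21 and 6.09 on day 3, 5.87 and 5.56 on day 7, 5.74 and 6.13 on day 14, and 5.84 and 6.38 on day 28, against 5.50, 5.80 and 5.67 in sham. All arrays of days 3 and 28 lay above the sham range, as did those of 19.8% and 25.7% of all genes tested. The differences were 0.44 on day 3 (SE 0.150, adjusted p = 0.0872), 0.45 on day 28 (SE 0.168, adjusted p = 0.170) and 0.27 over all iron days (SE 0.119, adjusted p = 0.294). With only the arrays compared in the fit the day 3 value passed (adjusted p = 0.0390), and with array weights the day 28 value was 0.48 (adjusted p = 0.0358). The day 28 value turned on single arrays, at 0.72 without replicate 1 and 0.18 without replicate 2 of iron day 28 (adjusted p = 0.170 and 0.799).

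Bbc3, the p53-induced messenger, had a mean signal of 5.23, under the filter minimum of 5.51. It was 5.27, 5.09 and 5.27 on iron day 1, 5.44, 5.32 and 5.21 on day 3, 5.34 and 5.31 on day 7, 5.23 and 5.40 on day 14, and 4.81 and 5.42 on day 28, against 5.15, 5.21 and 5.03 in sham. With no filter its differences from sham lay between -0.02 on day 28 and 0.19 on day 3 (SE 0.137 to 0.154, adjusted p = 0.378 to 0.970). At this signal a probe set may be near the background of the array, for which no measure is in the values used.

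Counted together, 1 of the 8 tested members passed on each of days 3, 7 and 28, and 0 passed on days 1 and 14 in limma, where 2 and 1 had an unadjusted p under 0.05 (11.0% and 15.4% of all genes). On day 3, 5 of 8 members (Bcl2l11, Bcl2, Bad, Bak1 and Bnip3l) had an unadjusted p under 0.05, against 27.2% of all genes. The median difference over the 8 members was -0.09 on day 3 and 0.11 on day 14, against 0.04 and -0.02 over all genes tested. On days 1, 7 and 28 the median over the members was 0.01, 0.09 and -0.03, against 0.03, -0.03 and 0.02 over all genes tested.

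The mitophagy receptors Bnip3 and Bnip3l did not pass in any comparison. Bnip3 was 10.14, 9.98 and 9.68 on iron day 1, 9.62, 9.37 and 9.20 on day 3, 9.55 and 9.97 on day 7, 9.94 and 9.62 on day 14, and 9.38 and 9.39 on day 28, against 9.85, 9.60 and 9.53 in sham. On day 1, 2 of 3 arrays were above every sham array, and 2 of 3 of day 3 and both of day 28 were below, the last as for 19.4% of all genes. The differences were 0.27 on day 1 (SE 0.149, adjusted p = 0.521), -0.26 on day 3 (SE 0.149, adjusted p = 0.273) and -0.27 on day 28 (SE 0.167, adjusted p = 0.387). The F test among iron days gave an adjusted p of 0.0596. It was under 0.05 without replicate 3 of day 1, without replicate 1 or 2 of day 7 and without replicate 2 of day 14 (0.0400, 0.0497, 0.0469 and 0.0433).

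Bnip3l, which also clears mitochondria from maturing red cells, was 10.34, 10.15 and 10.09 on iron day 1, 10.16, 9.97 and 10.10 on day 3, 10.31 and 10.09 on day 7, 10.07 and 10.44 on day 14, and 10.31 and 10.16 on day 28, against 10.12, 10.70 and 10.41 in sham. The sham arrays spanned 0.58 and no iron array exceeded them. Its differences ran from -0.33 on day 3 (SE 0.137, adjusted p = 0.140) to -0.16 on day 14 (SE 0.154, adjusted p = 0.643). The array with the highest Bnip3l, replicate 2 of sham day 1, also had the highest erythroid marker mean (6.43), and the part of red cell RNA was not tested.

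Both genes had a second probe set, and the pair of each gene ran closely together. The other Bnip3 probe set, 0.71 to 0.96 apart from the one used over the arrays, gave 0.34 on day 1 (SE 0.135), -0.05 on day 3 (SE 0.135) and -0.14 on day 28 (SE 0.151), with adjusted p of 0.375, 0.829 and 0.655. The day 3 value thus depended on the probe set, at -0.05 or -0.26. The probe set used for Bnip3 carries a number among those of genes on chromosome 14 (10 of the 10 nearest), whereas Bnip3 lies on chromosome 7, as do the 10 nearest of the other probe set. For Bnip3l the probe set used is numbered among genes of its own chromosome 14 (9 of 10) and the other among genes of chromosome 12 (10 of 10). Whether these probe sets read copies of the genes elsewhere was not tested. The other Bnip3l probe set gave -0.39 on day 3 (SE 0.158, adjusted p = 0.133) and -0.13 on day 14 (SE 0.177, adjusted p = 0.733).

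**Figure D4:**
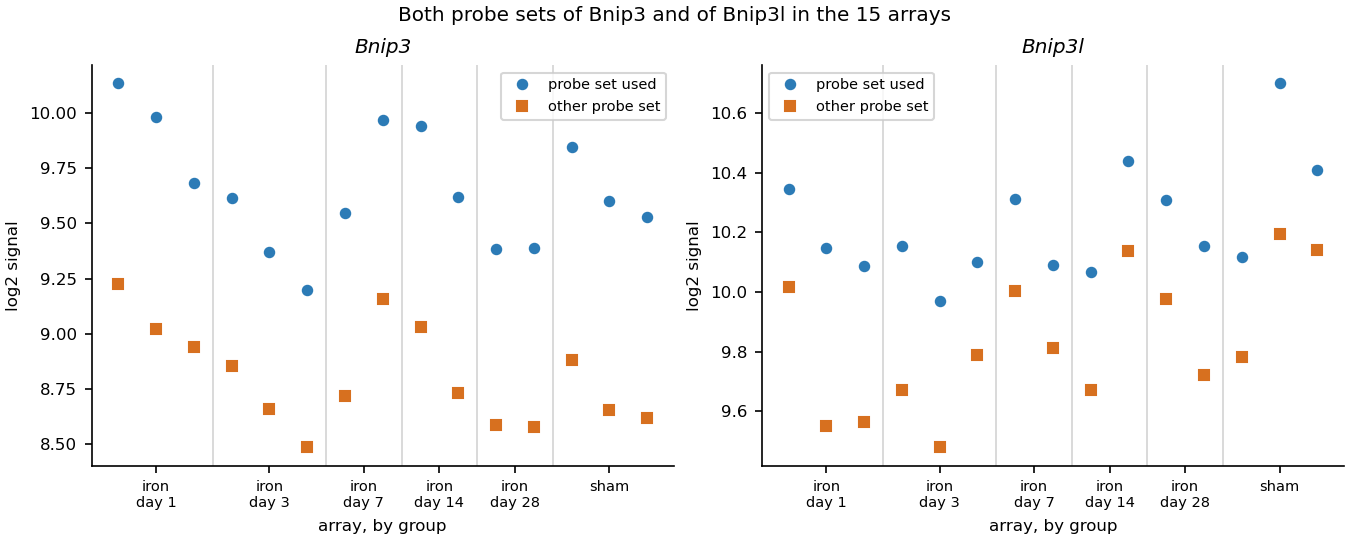
Log2 signal (vertical axes) of both probe sets of Bnip3 (left) and Bnip3l (right) in the 15 arrays, grouped along the horizontal axis. The probe set used was chosen for its higher mean, and the 2 of a gene stay 0.71 to 0.96 apart for Bnip3 and 0.27 to 0.60 apart for Bnip3l.

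Other genes of the pathway moved in small numbers. Among 5 tested of 16 further Bcl2 family genes, Hrk, a BH3-only gene known from neurons, rose by 0.43 on day 3 (SE 0.0913, adjusted p = 0.0171; 8.03% of all genes passed), and Bcl2l13, another mitochondrial receptor of the family, fell by 0.22 in late against early iron (SE 0.0674, adjusted p = 0.0368; 22.0% of all genes passed). Of 13 tested genes acting after the outer membrane opens, 0 passed against sham on any day in limma, with 3, 5, 3, 1 and 2 at an unadjusted p under 0.05 on days 1, 3, 7, 14 and 28, where 11.0%, 27.2%, 24.0%, 15.4% and 19.3% of all genes had one. In late against early iron 4 of the 13 fell and 1 rose, where 22.0% of all genes passed. Those that fell were Diablo (-0.28, SE 0.0708, adjusted p = 0.0134), whose product blocks inhibitors of caspases, Ppif (-0.31), a regulator of the mitochondrial permeability pore, Aifm1 (-0.21) and the channel gene Vdac3 (-0.16). Birc3, an inhibitor of apoptosis, rose by 0.67 (SE 0.119, adjusted p = 0.00245).

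Among 15 tested mitophagy and autophagy genes 1 passed on day 3 (8.03% of all genes), 1 on day 28 (2.0%) and 1 in late against early iron (22.0%). Ulk1, the kinase that starts autophagy, rose by 0.39 on day 3 (SE 0.0899, adjusted p = 0.0224) and Gabarapl2 fell by 0.35 on day 28 (SE 0.0780, adjusted p = 0.0353). Gabarapl1, an autophagosome protein that binds Bnip3l, rose by 0.40 in late against early iron (SE 0.0900, adjusted p = 0.00811). Of 16 tested upstream regulators 2 rose on day 3, where 8.03% of all genes passed, 2 fell on day 7 (4.6%), and 2 rose and 1 fell in late against early iron (22.0%). Ddit3 (Chop), a stress factor known to induce Bim, rose by 1.21 on day 3 (SE 0.195, adjusted p = 0.00679), and the co-chaperone gene Bag3 rose by 0.47 (SE 0.109, adjusted p = 0.0224). Huwe1, a ligase for Mcl-1 protein, fell by 0.46 on day 7 (SE 0.114, adjusted p = 0.0395), and Usp9x, a deubiquitinase that stabilizes Mcl-1, by 0.40 (adjusted p = 0.0404). In late against early iron Foxo1 (0.35, SE 0.0807, adjusted p = 0.00919), one of the Foxo factors known to activate Bim, and Ywhaz (0.48, SE 0.0990, adjusted p = 0.00522), which binds phosphorylated Bad, rose, and Ddit3 fell by 0.57 (SE 0.138, adjusted p = 0.0116).

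Genes that share inducers with the members were mixed. Of 13 tested hypoxia response genes, which like Bnip3 are induced by Hif1, 1 rose and 1 fell on each of days 3 and 7, where 8.03% and 4.6% of all genes passed, and 1 rose on day 14 (0.833%). Ddit4, which also answers to glucocorticoids and other stresses, rose by 1.27 on day 3, 1.48 on day 7 and 1.66 on day 14 (adjusted p = 0.0168, 0.0190 and 0.0187), and by 1.08 over all iron days (adjusted p = 0.0276; 1.13% of all genes passed), whereas Ndrg1 fell by 0.53 on day 3 (adjusted p = 0.0490) and Hk2 by 0.46 on day 7 (adjusted p = 0.0290). In late against early iron 4 fell, namely Hk2, Ldha, Adm and Pdk1 (-0.35, -0.26, -0.33 and -0.23), and Ndrg1 rose by 0.47, where 22.0% of all genes passed. Of 10 tested direct p53 targets, which share their inducer with Bbc3, 1 rose on day 3 (Gadd45a, 0.58, adjusted p = 0.0111; 8.03% of all genes passed) and 1 on day 28 (Trp53inp1, 1.38, adjusted p = 0.0349; 2.0% passed). In late against early iron 5 of the 10 passed, against 22.0% of all genes: Trp53inp1 rose by 0.85 (adjusted p = 0.00810), and Perp, Ccng1, Gadd45a and Rrm2b fell (-0.23, -0.13, -0.27 and -0.25; adjusted p = 0.0107 to 0.0439). The median over these targets was 0.08 on day 3, -0.11 on day 28 and -0.13 in late against early iron, against 0.04, 0.02 and -0.03 over all genes.

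By the shape of their values over the 15 arrays, the tested genes most like Bcl2l11 were Ccdc117 (Pearson r = 0.896), Mblac2 (0.846) and Irs2 (0.837). Irs2, an adaptor of the insulin receptor, was 5.91, 6.06 and 6.65 on iron day 1 and 7.55, 7.38 and 7.01 on day 3, against 6.23, 5.98 and 6.15 in sham. The genes most like Bcl2 were Prr14l (0.928), Sipa1 (0.919) and Tent2 (0.918). These are the highest of 9968 values for each member, are given as a description, and include the differences between groups and in cell markers that the arrays share.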

How the data were processed

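RNA of 15 samples was measured on arrays with 34760 probe sets. The deposited values are log2 signals (0.234 to 13.01), normalized by the authors before deposit; the submitters' processing notes name MAS5, with its version and role not given in the sources used here. Of the probe sets 21640 had a single symbol in the platform annotation, updated through gene identifiers, and gave 19937 genes; genes with a mean of at least 5.5125, the upper 50%, were tested.

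The members and lists were chosen with earlier results of these data known. Limma 3.58.1 (R 4.3.3) fitted 6 group means with an intensity trend (9 residual degrees of freedom); it was tested on simulated data. The number of arrays limits the precision. Named genes are all members, pathway list genes that passed (at most 4 per comparison and direction, by smallest adjusted p) and the 3 genes most correlated with each member that passed. Lists held 16, 16, 17, 19, 15 and 15 pathway genes, beside markers of 7 cell types including pericytes. Sequences are RefSeq's. Alternatives were normalization, filters, trend, weights, probe sets, a replicate block, control arrays and leaving out arrays. Tables and figures used Python 3.11.15, pandas 2.3.3, numpy 2.4.6 and matplotlib 3.10.9.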

Additional observations from a re-analysis of the deposited data

Results flagged for a closer look

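The rise of Bcl2 by 0.69 in late against early iron arrays was listed because a test between times of collection found its value to differ between them (limma adjusted p = 0.0153). The higher value was seen in 6 late arrays (5.64 to 6.54) against 6 early ones (4.87 to 5.91). Groups of 2 or 3 arrays were too small to be searched for single arrays that lie far from the rest.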

How the results depend on the processing

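Over the alternatives run, 0 members passed on days 1 and 14 under any, and in limma no difference that passed changed its sign. Of the member differences 1605 stayed on their side of the threshold, 16 lost a call and 19 gained one. These counts repeat some fits. Using the sham day 1 arrays alone and leaving out the sham day 3 array are the same fit. Over all iron days the fit of only the arrays compared is the fit reported. With each array centred on its median, 2 members passed on day 3, 0 on day 28 and 1 in the F test. With a stricter filter (mean of at least 6.4368, 6646 genes) Bcl2l11, Bcl2 and Bad are not tested, and 0 members passed on days 3, 7 and 28, over all iron days and in late against early iron. Array weights gave 2 members on day 3, 2 on day 28 and 3 in the F test. Against the sham day 3 array alone 0 passed on days 3, 7 and 28 and over all iron days. A fit of only the arrays compared gave 3 on day 3 (Bcl2l11, Bcl2 and Bad) and 0 on day 7. Leaving out 1 array at a time gave 1 to 2 members on day 3, 0 to 1 on days 7 and 28 and over all iron days, and 0 to 2 in the F test.

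Same-numbered arrays had a median residual r of 0.0616 over 31 pairs (11 above 0.1), and arrays of other numbers one of -0.029 over 50 pairs (14 above 0.1). Not every same-numbered pair was above 0.1, and the numbers are treated as shared only. With the replicate block, which leaves out the unnumbered sham day 3 array, 1 member passed in the F test (Bnip3, adjusted p = 0.0433), and the counts of members in the other comparisons stayed the same. Genes passing over the alternatives ranged from 0 to 363 on day 1 (6 in the fit reported), 126 to 1691 on day 3 (801), 45 to 1270 on day 7 (459), 25 to 167 on day 14 (83), 37 to 2448 on day 28 (199), 30 to 356 over all iron days (113), 1247 to 2991 in late against early iron (2194) and 611 to 4051 in the F test (1911). The causes were not tested. The number of arrays, 2 or 3 in each group, limits what can be told apart.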
